A study of Mus musculus with 6 samples.

Results

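The comparison set cultures kept with FSL-1 against cultures kept with M-CSF alone, in bone marrow-derived macrophages of C57Bl/6 mice. It was defined by the treatment labels and used 4 of the 6 arrays of the series, 2 per treatment, with 22180 genes measured on each. Bone marrow cells had first been grown for 5 days with M-CSF at 20 ng/ml. They were then detached, replated and held for 6 days either in M-CSF at 50 ng/ml (the M-CSF group), with FSL-1 at 20 ng/ml (the FSL-1 group), or with the same dose of FSL-1 and the MDM2 inhibitor nutlin-3a at 10 µM. The series title speaks of multinucleated giant cells, but each sample is labelled as macrophage and the arrays give no count of nuclei. In the fit the nutlin-3a arrays served only to estimate the spread. They also counted in choosing the probe set of a gene, and their values for some genes are given at the end. The RNA came from sorted cells, amplified before labelling. What the sort selected, and whether the FSL-1 cultures also received M-CSF after replating, are points not given in the sources used here. Nor do the labels say that the 2 arrays of a group came from separate animals or cultures. The p-values weigh a difference against the scatter between arrays of a group, the nutlin-3a arrays included, moderated across genes. That scatter may be technical.

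The lipopeptide FSL-1 is synthetic, with a diacylated end that engages the paired receptors TLR2 and TLR6, and signals through MyD88 to NF-kB and the MAP kinases. M-CSF, the ligand of the receptor Csf1r, keeps macrophages alive and sustains their differentiated program. Macrophages under lasting stimulation, as in granulomas, can become large cells with several nuclei, called giant cells. The arrays measure pooled RNA, so more RNA per cell and more cells of a type cannot be told apart.

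FSL-1 cultures had more genes called higher than lower: 867 genes were higher and 654 lower at a limma adjusted p under 0.05, which is 3.91% and 2.95% of all genes. Of these, 274 and 149 differed by more than 2-fold. The call survived leaving out each of the 4 compared arrays in turn for 255 genes that were higher (1.15%) and 98 that were lower (0.442%), called stable in what follows. The 2 arrays of each group did not overlap, with FSL-1 higher, for 24.6% of all genes and, with FSL-1 lower, for 25.6%. Leaving out first each M-CSF array and then each array of FSL-1, in the order of their replicate numbers, 347, 541, 335 and 294 genes were called higher, and 168, 493, 116 and 169 lower. Counts with an array left out are given in this same order throughout. All levels are log2 values of the RMA-processed arrays, and all differences are FSL-1 minus M-CSF on that log2 scale, ± standard error from limma. The median log2 level of all genes was 5.51, and the median log2 difference of all genes was -0.01. Replicate arrays correlated across genes at 0.9937 to 0.9951, and arrays of different groups at 0.9809 to 0.985.

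The cells expressed macrophage genes in both groups. All 14 measured macrophage markers lay above the median of all genes in both groups, and their mean log2 level per array was 10.84 and 10.73 with M-CSF and 10.84 and 10.90 with FSL-1. Within that list Itgam (CD11b) and Adgre1 (F4/80) were higher by 0.74 and 0.56, and Csf1r, the M-CSF receptor, was lower by a difference of -0.87. The Adgre1 call was lost on removal of any 1 compared array, and the Itgam and Csf1r calls were lost without M-CSF replicate 1 or either FSL-1 array. Of 14 osteoclast and giant cell markers, 4 were higher (28.6%) and 1 lower (7.14%), against 3.91% and 2.95% of all genes. The median log2 difference of the list was 0.03. The 4 were Acp5, the tartrate-resistant acid phosphatase, Mmp9, Ctsk and Atp6v0d2, and the lower one was Itgb3. The rest, among them Dcstamp, Ocstamp, Calcr, Oscar, Tnfrsf11a and Nfatc1, were not called. Log2 values for Acp5 were 4.86 and 5.35 in the M-CSF arrays and 7.59 and 7.59 in the FSL-1 arrays. Those for Mmp9 were 5.07 and 5.21 in the M-CSF arrays and 7.53 and 7.34 in the FSL-1 arrays. Atp6v0d2 was no longer called without FSL-1 replicate 1 or FSL-1 replicate 2. Nor was Itgb3, which lost its call without M-CSF replicate 2 and with the compared groups alone as well. Neutrophil markers had a mean log2 level of 4.65 and 4.71 with M-CSF and 5.04 and 5.05 with FSL-1. Of 16, the 3 called were Mmp8, S100a8 and Cxcr2, all higher, which is 18.8% against 3.91% of all genes. The defining marker Ly6g read 3.97 and 4.14 in the M-CSF arrays and 4.12 and 3.91 in the FSL-1 arrays. Fibroblast and stromal markers had a mean of 5.19 and 5.14 with M-CSF and 5.38 and 5.61 with FSL-1. Of 16, 2 were higher (12.5%, against 3.91% of all genes). They were Acta2 and Vcam1, and both calls were lost on removal of any 1 compared array. Among the stromal markers Col1a1 read 7.04 and 6.64 in the M-CSF arrays and 7.03 and 7.43 in the FSL-1 arrays and was not called. Without FSL-1 replicate 1, stromal markers other than Acta2 and Vcam1 were called higher. Cxcr2 lost its call without M-CSF replicate 1 or either FSL-1 array. Of 13 dendritic cell markers only Ccr7 was called, higher (7.69%), and not on removal of any 1 compared array. Of 14 lymphocyte markers Cd79b was called higher (7.14%) and Cd4 lower (7.14%). Of 10 erythroid, mast cell and megakaryocyte markers Pf4 was called higher (10%) and Epor lower (10%). Over all genes the shares were 3.91% and 2.95%. Calls of Cd79b and Epor were lost on removal of any 1 compared array, that of Cd4 without FSL-1 replicate 1, and that of Pf4 without M-CSF replicate 1 or either FSL-1 array. The part of the neutrophil and stromal markers in the results below was not tested.

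Gene lists of 19 kinds were read: 5 of transcription factors, 5 of surface receptors and adhesion molecules, 4 of secreted proteins, 4 of metabolism and the solute carrier family. They hold 1715 genes together, of which 245 (14.3%) were higher and 108 (6.3%) lower, against the 3.91% and 2.95% of all genes. The lists hold brighter genes than the array as a whole. The brighter group mean lay above the median of all genes for 1130 of the 1715, against 11444 of all 22180 genes. The part of brightness in these shares was not tested. The largest shares of higher genes were in the Ig-like and Siglec family (33.3%), the bZIP factors (30.2%) and the chemokines (27.8%). Lipid and eicosanoid genes had the largest share of lower genes (12.5%), with as many higher.

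**Figure D1:**
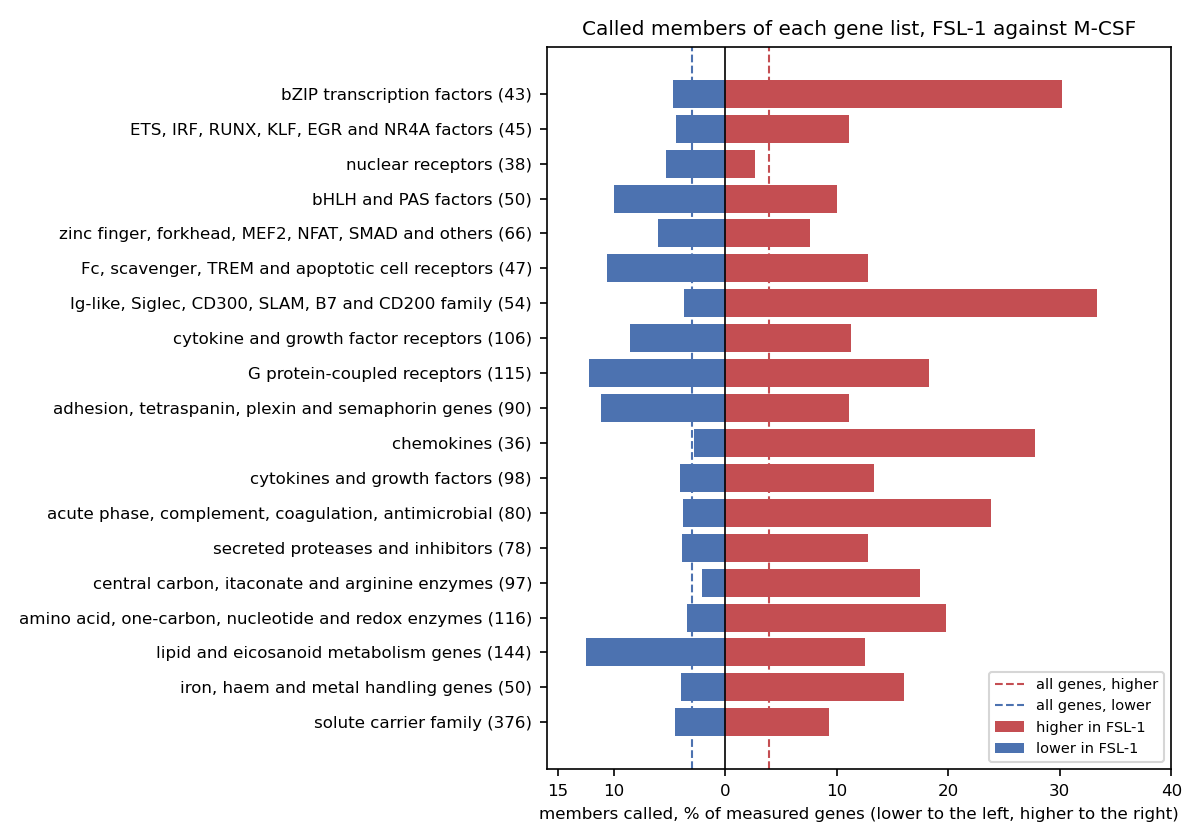
Share of measured members called in each gene list at a limma adjusted p under 0.05. Bars to the right are genes higher in FSL-1 and bars to the left genes lower, in percent of measured members (their number in brackets), and dashed lines mark the shares over all genes, 3.91% and 2.95%. The bar of nuclear receptors, with 2.63% higher, is the only one to the right that stays below the dashed line.

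The promoters of the called genes were searched for sequence motifs, and the shares are a description with no test. The 250 bases before each annotated start were taken from RefSeq (GRCm38.p6) and searched on both strands for 12 motifs. Promoters were matched for 16990 of 22180 genes, 668 of the 867 genes called higher, 524 of the 654 called lower, 206 of the 255 stable higher genes and 75 of the 98 stable lower ones. TTGCNNAA, the C/EBP motif, was in 9.18% of all 20611 promoters, in 11.4% of the 843 of all higher genes and in 8.12% of the 677 of all lower genes. Among stable genes it was in 19.0% of 274 promoters of higher and 11.3% of 106 promoters of lower genes, so the larger share belongs to the stable subset. The kB consensus was in 7.98% of all promoters, in 10.4% and 7.83% of those of all higher and all lower genes, and in 11.3% and 7.55% of those of stable ones. In the same order TGANTCA, the AP-1 motif, was in 6.37%, 7.35%, 4.73%, 10.6% and 6.6%, and the E-box CACGTG in 6.82%, 10.8%, 7.09%, 11.7% and 6.6%. The CARE motif TGATGNAA, the element that ATF4 and C/EBP factors can share, was in 2.95%, 3.91%, 2.95%, 4.38% and 2.83%. For TGACNNNGC, the antioxidant element, the shares were 10.8%, 12%, 11.5%, 10.9% and 12.3%. GAGGAAGT, an ETS motif, was in 2.31%, 3.8%, 3.4%, 2.55% and 4.72%. The other 5 motifs were TGACGTCA (CRE), TTTGAA (CHR), the ISRE consensus, TTANNTAA (D-box) and TCACGTGA (CLEAR). Their shares over all promoters were 2.0%, 13.8%, 2.9%, 4.79% and 1.04%. Over all higher genes they were 2.37%, 11.5%, 3.91%, 4.27% and 0.593%, and over all lower genes 2.36%, 14.8%, 3.4%, 3.84% and 1.48%. Over stable higher genes they were 2.19%, 12.4%, 3.65%, 5.84% and 0.73%, and over stable lower genes 1.89%, 15.1%, 1.89%, 4.72% and 0%. CLEAR holds the E-box, so their matches overlap, and genes with several starts count more than once. A match is a description and not a binding site. Shown are 5 promoters of genes described below, chosen after their values were seen. Capitals mark the C/EBP match in Saa3, Lcn2 and Ptgs2, both CARE matches (1 on each strand) in Slc7a11, and the kB match in Csf1. They lie at chr7:46715677-46715926 (Saa3, minus strand), chr2:32387740-32387989 (Lcn2, minus), chr1:150099781-150100030 (Ptgs2, plus), chr3:50443614-50443863 (Slc7a11, minus) and chr3:107760470-107760719 (Csf1, minus), each ending at the base before the start of the transcript.
Saa3: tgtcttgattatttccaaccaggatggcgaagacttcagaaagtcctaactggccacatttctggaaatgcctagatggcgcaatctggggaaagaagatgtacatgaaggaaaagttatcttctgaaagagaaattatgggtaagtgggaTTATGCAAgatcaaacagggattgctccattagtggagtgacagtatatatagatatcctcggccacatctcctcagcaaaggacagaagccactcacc
Lcn2: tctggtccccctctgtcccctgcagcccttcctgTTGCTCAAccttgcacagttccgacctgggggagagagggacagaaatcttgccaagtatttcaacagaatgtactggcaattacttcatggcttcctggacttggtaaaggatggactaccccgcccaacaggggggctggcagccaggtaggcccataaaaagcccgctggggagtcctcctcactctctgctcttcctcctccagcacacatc
Ptgs2: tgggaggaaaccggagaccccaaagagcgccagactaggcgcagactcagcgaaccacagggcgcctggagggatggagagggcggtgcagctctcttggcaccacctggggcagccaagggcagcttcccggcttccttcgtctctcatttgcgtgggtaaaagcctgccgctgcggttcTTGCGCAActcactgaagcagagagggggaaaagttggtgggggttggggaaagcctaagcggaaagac
Slc7a11: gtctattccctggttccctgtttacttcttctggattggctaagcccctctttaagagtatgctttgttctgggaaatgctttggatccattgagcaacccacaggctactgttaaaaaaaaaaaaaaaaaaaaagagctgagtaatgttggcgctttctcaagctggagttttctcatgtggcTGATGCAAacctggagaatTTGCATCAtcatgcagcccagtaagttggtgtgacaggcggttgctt
Csf1: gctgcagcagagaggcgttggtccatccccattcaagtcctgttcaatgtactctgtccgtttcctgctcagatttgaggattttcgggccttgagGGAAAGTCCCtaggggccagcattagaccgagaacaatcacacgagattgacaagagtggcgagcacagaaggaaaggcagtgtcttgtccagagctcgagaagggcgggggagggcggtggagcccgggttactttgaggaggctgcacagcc

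Among the transcription factors in the lists the largest increase was that of Ets2, an ETS factor that acts downstream of MAP kinases in macrophages. Its log2 values were 7.67 and 8.21 in the M-CSF arrays and 11.10 and 11.14 in the FSL-1 arrays. Both FSL-1 arrays were nearly equal and far above the M-CSF arrays, 9.07-fold in the group means, with a difference of 3.18 ± 0.179 (limma adjusted p = 6.71e-05). Klf4, a zinc finger factor of macrophage differentiation, read 5.72 and 5.92 in the M-CSF arrays and 7.51 and 7.55 in the FSL-1 arrays, a difference of 1.71 ± 0.121 (limma adjusted p = 2.02e-04). Egr2, an early response factor also needed for macrophage identity, read 6.78 and 6.82 in the M-CSF arrays and 8.05 and 8.11 in the FSL-1 arrays, a difference of 1.28 ± 0.112 (limma adjusted p = 5.90e-04). Cebpb, the C/EBP factor of the acute phase response, read 7.62 and 7.58 in the M-CSF arrays and 8.56 and 8.87 in the FSL-1 arrays, a difference of 1.12 ± 0.146 (limma adjusted p = 0.00445). In each of the 4 genes the groups were apart and the call was stable, which were conditions for naming them. Sox7 was also higher, with 5.66 and 5.10 in the M-CSF arrays and 6.90 and 6.91 in the FSL-1 arrays. The lists leave out some transcription factors. Stat4, Dach1 and Myc, outside them, also met the conditions for naming, at ranks 50, 64 and 77 of the increases over all genes. In the ETS, IRF, RUNX, KLF, EGR and NR4A list 5 of 45 measured members were higher (11.1%) and 2 lower (4.44%) at a median log2 difference of -0.02, with 3, 6, 3 and 3 higher and 1, 1, 1 and 1 lower with 1 array left out.

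In the bZIP list 13 of 43 measured members were higher (30.2%) and 2 lower (4.65%) at a median log2 difference of 0.18. Besides Cebpb the genes called higher included Fos (an AP-1 subunit), Ddit3 and Atf4 (factors of the integrated stress response) and Nfil3, with differences of 1.20, 1.07, 0.72 and 0.76. The counts were 5, 9, 4 and 1 higher and 2, 2, 1 and 2 lower with 1 array left out. Cebpb was the only bZIP gene called higher in every one of these fits. Atf4 read 8.42 and 8.77 in the M-CSF arrays and 9.35 and 9.27 in the FSL-1 arrays, and its call was lost without M-CSF replicate 1 or either FSL-1 array. Ddit3 lost its call without FSL-1 replicate 2, Fos without that array or M-CSF replicate 1, and Nfil3 with M-CSF replicate 2 or either array of the FSL-1 group left out. Nfe2l2, the redox factor NRF2, read 11.51 and 11.49 in the M-CSF arrays and 11.52 and 11.52 in the FSL-1 arrays, with a difference of 0.02 ± 0.109 (limma adjusted p = 0.959).

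The stable decreases among the transcription factors in the lists were those of Mef2c, Lyl1, Pparg, Irf4, Maf and Mxd4. Mef2c, a MADS box factor, read 9.18 and 9.03 in the M-CSF arrays and 7.38 and 7.82 in the FSL-1 arrays, a difference of -1.51 ± 0.179 (limma adjusted p = 0.00274). A second, dimmer probe set of Mef2c differed by -0.61. Lyl1, a bHLH factor of haematopoietic cells, read 9.74 and 9.72 in the M-CSF arrays and 8.35 and 8.54 in the FSL-1 arrays and differed by -1.28 ± 0.124 (limma adjusted p = 0.00105). Pparg, the fatty acid receptor that governs lipid handling, read 8.19 and 8.25 in the M-CSF arrays and 7.09 and 7.10 in the FSL-1 arrays and differed by -1.13 ± 0.126 (limma adjusted p = 0.00206). The 3 genes were low in both FSL-1 arrays, with the groups apart, which was a condition for naming them. Irf4, a factor of alternative activation, differed by -1.19, Maf by -0.97 (its other probe set by -0.86) and Mxd4, a partner of MAX, by -1.16. In the bHLH and PAS list 5 of 50 measured members were higher (10%) and 5 lower (10%) at a median log2 difference of -0.11, with 1, 4, 0 and 1 higher and 2, 4, 2 and 3 lower with 1 array left out. Myc, a bHLH factor outside this list, was higher with a stable call. In the nuclear receptor list 1 of 38 measured members was higher (2.63%) and 2 lower (5.26%) at a median log2 difference of -0.02, with 0, 1, 0 and 0 higher and 1, 2, 1 and 1 lower with 1 array left out, and the higher one was Nr1h3 (LXR alpha, 6.31 and 6.42 in the M-CSF arrays and 7.01 and 7.0 in the FSL-1 arrays), a call that was lost without M-CSF replicate 1 or either FSL-1 array. In the list of zinc finger, forkhead, MEF2, NFAT and SMAD factors 5 of 66 measured members were higher (7.58%) and 4 lower (6.06%) at a median log2 difference of -0.07, with 3, 3, 3 and 1 higher and 2, 5, 1 and 1 lower with 1 array left out. Other factors did not pass the test: Spi1 (PU.1) differed by 0.12 ± 0.165 (limma adjusted p = 0.766), Irf8 by -0.50 ± 0.157 (limma adjusted p = 0.109), Mitf by -0.23 ± 0.168 (limma adjusted p = 0.519), Tfec by -0.45 ± 0.133 (limma adjusted p = 0.0953), Nfatc1 by -0.59 ± 0.171 (limma adjusted p = 0.0879) and Rxra by -0.16 ± 0.134 (limma adjusted p = 0.578). Irf8, Tfec and Nfatc1 were called lower with trend and robust moderation and with the filter on dim genes, and Nfatc1 also without M-CSF replicate 2.

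**Figure D2:**
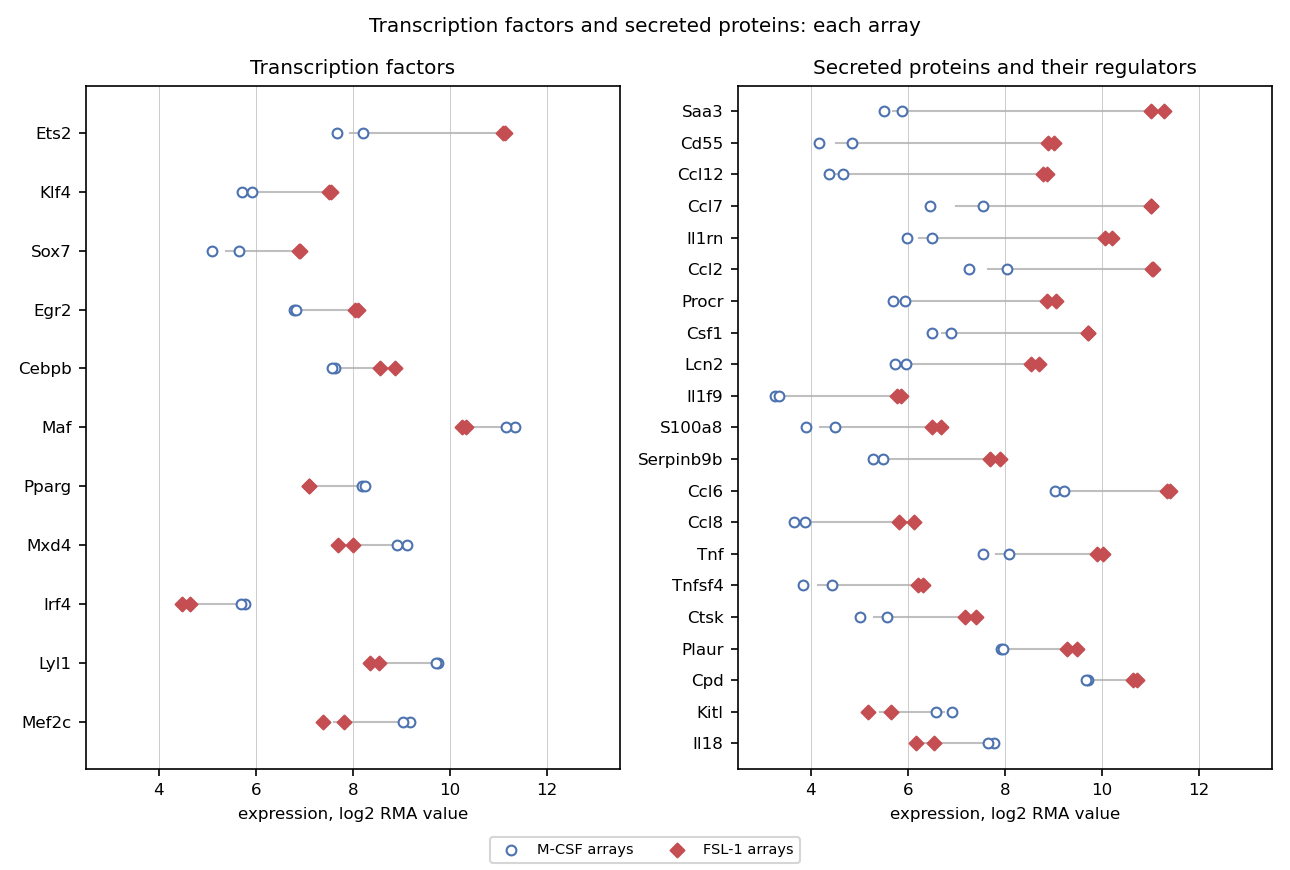
Log2 RMA values of the transcription factors (left) and of the secreted proteins and their regulators (right) that the naming rule took from the lists. Their calls held with every compared array left out. Genes named after their values were seen are not shown. Open circles are the 2 M-CSF arrays, diamonds the 2 FSL-1 arrays, and grey lines join the group means. Ets2 moves from 7.67 and 8.21 to 11.10 and 11.14, and in each gene shown the circles and diamonds do not overlap, as naming required.

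Among receptors for particles and lipoproteins, the scavenger receptor Marco rose and the receptors Fcgrt and Stab1 fell. Marco, which binds bacteria and inert particles, read 7.58 and 7.82 in the M-CSF arrays and 11.63 and 11.60 in the FSL-1 arrays, a difference of 3.92 ± 0.125 (limma adjusted p = 5.71e-06). Fcgrt, the neonatal Fc receptor that recycles IgG, read 11.51 and 11.07 in the M-CSF arrays and 9.69 and 9.90 in the FSL-1 arrays, a difference of -1.49 ± 0.166 (limma adjusted p = 0.00197). Stab1, a scavenger receptor of alternatively activated macrophages, read 12.01 and 11.74 in the M-CSF arrays and 10.94 and 10.91 in the FSL-1 arrays, a difference of -0.95 ± 0.127 (limma adjusted p = 0.00486). Marco was high in both FSL-1 arrays, and the other genes were low in both, a separation that naming required. In the whole list 6 of 47 measured members were higher (12.8%) and 5 lower (10.6%) at a median log2 difference of -0.04, with 2, 3, 1 and 1 higher and 2, 6, 2 and 3 lower with 1 array left out. Msr1 and Lrp1 differed by 1.12 and -0.87, calls that were lost with either FSL-1 array left out, and for Lrp1 also without M-CSF replicate 1. Mrc1, the mannose receptor, differed by -0.35 ± 0.114 (limma adjusted p = 0.118), Trem2 by -0.20 ± 0.113 (limma adjusted p = 0.383) and Cd36 by 0.00 ± 0.119 (limma adjusted p = 0.998), none of them called. With trend and robust moderation, and with the filter on dim genes, Mrc1 was called lower.

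The Ig-like, Siglec, CD300, SLAM, B7 and CD200 list had the largest share of members called higher. In it 18 of 54 measured members were higher (33.3%) and 2 lower (3.7%) at a median log2 difference of 0.15, with 10 stable calls among the higher ones and 12, 13, 13 and 10 higher and 1, 2, 1 and 2 lower with 1 array left out. Over all genes 3.91% were higher, 2.95% lower and 1.15% higher with a stable call. Pilra, an inhibitory receptor, read 6.43 and 6.34 in the M-CSF arrays and 9.54 and 9.59 in the FSL-1 arrays, a difference of 3.18 ± 0.152 (limma adjusted p = 2.99e-05). Pilrb1, its activating partner, read 6.04 and 6.43 in the M-CSF arrays and 8.35 and 8.22 in the FSL-1 arrays and differed by 2.05. The Pilr and Sirpb1 genes have near-identical copies, which probes may not separate. Sirpb1a, an activating SIRP receptor, differed by 2.90 ± 0.276 (limma adjusted p = 9.32e-04). Siglece, an inhibitory sialic acid receptor, rose by 2.17, Cd200, the ligand of an inhibitory myeloid receptor, by 2.20 and Cd274 (PD-L1), the ligand of PD-1, by 1.49. The log2 values of Cd274 were 8.09 and 7.86 in the M-CSF arrays and 9.52 and 9.42 in the FSL-1 arrays. Clmp, an adhesion molecule, differed by 2.52, but its dimmer second probe set by 0.22. Cd276 and Cd244a, further B7 and SLAM members, were higher by 1.08 and 1.01. Cd300a, an inhibitory lipid receptor, fell, with 8.84 and 8.59 in the M-CSF arrays and 7.57 and 7.47 in the FSL-1 arrays and a difference of -1.19 ± 0.128 (limma adjusted p = 0.00171).

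Cytokine receptors changed in both directions. Il1rl2, the receptor of IL-36 cytokines, read 4.52 and 4.67 in the M-CSF arrays and 6.82 and 7.22 in the FSL-1 arrays, a difference of 2.43 ± 0.173 (limma adjusted p = 2.02e-04), and Met, the receptor of hepatocyte growth factor, read 4.84 and 4.95 in the M-CSF arrays and 7.14 and 7.37 in the FSL-1 arrays, a difference of 2.36 ± 0.126 (limma adjusted p = 5.35e-05). Il7r, the IL-7 receptor, and the TNF family receptors Tnfrsf10b and Tnfrsf26 differed by 1.44, 1.13 and 0.97. On the lower side, Il6ra, the IL-6 receptor, read 10.76 and 10.37 in the M-CSF arrays and 8.88 and 8.99 in the FSL-1 arrays, a difference of -1.64 ± 0.155 (limma adjusted p = 9.32e-04). Il12rb2, a chain of the IL-12 receptor, read 8.26 and 8.10 in the M-CSF arrays and 6.30 and 6.45 in the FSL-1 arrays and differed by -1.81, and Lifr, the LIF receptor that shares its signalling chain with Il6ra, differed by -1.30. The receptors that rose and those that fell were apart in all 4 arrays, which was a condition for naming them. In the list 12 of 106 measured members were higher (11.3%) and 9 lower (8.49%) at a median log2 difference of 0.01, with 6, 8, 6 and 5 higher and 4, 7, 3 and 4 lower with 1 array left out. Csf2ra, the GM-CSF receptor chain, differed by 0.57 ± 0.157 (limma adjusted p = 0.0755) and Tgfbr2 by -0.51 ± 0.132 (limma adjusted p = 0.0598), neither of them called. Both were called, Csf2ra higher and Tgfbr2 lower, with trend and robust moderation and with the filter on dim genes, and Csf2ra also with the compared groups alone.

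Of the G protein-coupled receptors, 21 of 115 measured members were higher (18.3%) and 14 lower (12.2%) at a median log2 difference of 0.04, with 9, 14, 9 and 9 higher and 7, 14, 3 and 6 lower with 1 array left out. Fpr2, the formyl peptide and serum amyloid receptor, was below the median of all genes with M-CSF and above it with FSL-1, with 3.44 and 3.02 in the M-CSF arrays and 7.47 and 7.65 in the FSL-1 arrays, a difference of 4.33 ± 0.159 (limma adjusted p = 8.29e-06). The 3 receptors of prostaglandins I2 and E2 that raise cyclic AMP were higher. Ptgir, the prostacyclin receptor, read 6.56 and 6.56 in the M-CSF arrays and 9.31 and 9.61 in the FSL-1 arrays, a difference of 2.90 ± 0.132 (limma adjusted p = 2.61e-05). Ptger2, a receptor of prostaglandin E2, read 5.70 and 5.19 in the M-CSF arrays and 6.92 and 7.35 in the FSL-1 arrays, a difference of 1.69 ± 0.201 (limma adjusted p = 0.00274). Ptger4, a further receptor of the same ligand, read 6.39 and 6.43 in the M-CSF arrays and 7.48 and 7.70 in the FSL-1 arrays, a difference of 1.18 ± 0.132 (limma adjusted p = 0.00202). All 3 calls held with every compared array left out, which was a condition for naming Ptgir and Ptger2. Gpr84, a receptor of medium chain fatty acids, and Gpr141 differed by 2.05 and 2.08, and P2ry2, a nucleotide receptor, by 1.12. P2ry12 and P2ry13, which bind ADP, went the other way with differences of -0.72 and -1.44. The P2ry13 call was lost without FSL-1 replicate 1, and the P2ry12 call without that array, FSL-1 replicate 2 or M-CSF replicate 1. Gpr183, the oxysterol receptor EBI2, read 7.39 and 7.29 in the M-CSF arrays and 6.20 and 6.11 in the FSL-1 arrays, a difference of -1.18 ± 0.119 (limma adjusted p = 0.00131). Gpr160 and Gpr162 fell as well, with differences of -1.24 and -1.14.

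Adhesion and guidance genes split evenly: 10 of 90 measured members were higher (11.1%) and 10 lower (11.1%) at a median log2 difference of 0.05, with 6, 6, 5 and 5 higher and 3, 6, 2 and 4 lower with 1 array left out. Jag1, a Notch ligand, read 5.09 and 4.85 in the M-CSF arrays and 6.90 and 7.23 in the FSL-1 arrays, a difference of 2.09 ± 0.158 (limma adjusted p = 2.84e-04). The semaphorins Sema3c and Sema4a rose by 1.88 and 1.57, Itgal, the alpha chain of LFA-1, by 1.49 and Pvr, a nectin-like adhesion molecule, by 1.35. Itga4, the alpha chain of VLA-4, fell, from 10.18 and 9.89 to 8.42 and 8.55, a difference of -1.55 ± 0.163 (limma adjusted p = 0.00163), and so did Itgb5, a vitronectin receptor chain, with a difference of -1.21. Podoplanin (Pdpn), the ligand of CLEC-2, which lies outside these lists, was among the 15 largest increases over all genes and read 6.51 and 6.41 in the M-CSF arrays and 10.53 and 10.61 in the FSL-1 arrays, a difference of 4.11 ± 0.136 (limma adjusted p = 6.31e-06). The tetraspanins Cd9 and Cd81 differed by 0.16 ± 0.119 (limma adjusted p = 0.526) and -0.26 ± 0.111 (limma adjusted p = 0.225) and were not called, though Cd81 was called lower with trend and robust moderation.

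**Figure D3:**
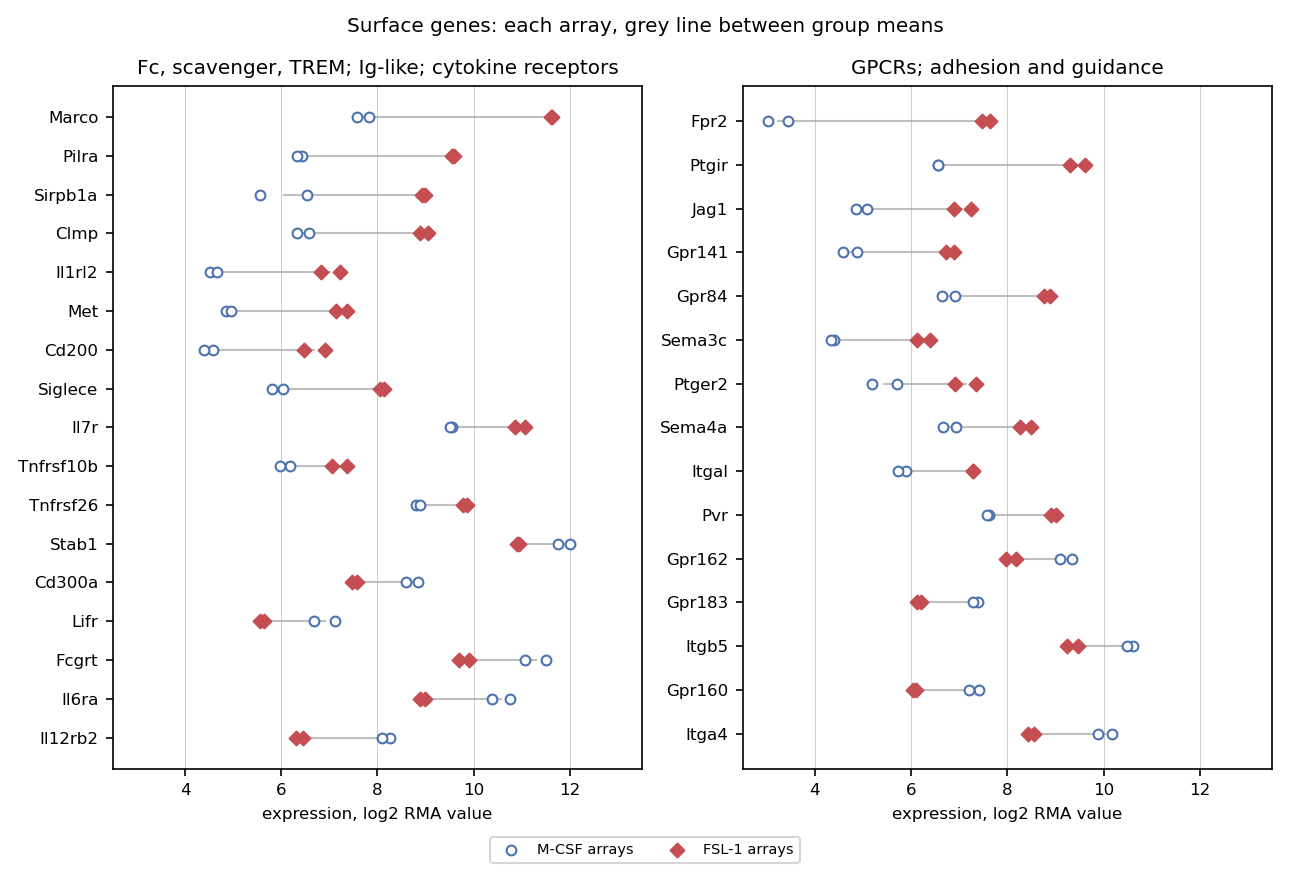
Log2 RMA values of the surface genes that the naming rule took from the lists: scavenger, Ig-like and cytokine receptors on the left, G protein-coupled receptors and adhesion or guidance genes on the right. Their calls are stable. Cd274 and genes named after their values were seen are not shown. Open circles are M-CSF arrays, diamonds FSL-1 arrays and grey lines join group means. Ptgir sits at 6.56 in both M-CSF arrays and at 9.31 and 9.61 in the FSL-1 arrays, while Il6ra and Itga4 move to lower values.

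Most called chemokines were higher: 10 of 36 measured members were higher (27.8%) and 1 lower (2.78%) at a median log2 difference of 0.10, with 8, 10, 8 and 7 higher and 0, 1, 0 and 0 lower with 1 array left out. Ccl2, the main ligand of Ccr2 and a recruiter of monocytes, read 7.25 and 8.04 in the M-CSF arrays and 11.05 and 11.04 in the FSL-1 arrays, a difference of 3.40 ± 0.243 (limma adjusted p = 2.08e-04). The related monocyte chemokines Ccl7, Ccl12 and Ccl8 differed by 4.01, 4.31 and 2.21, and Ccl6 by 2.24. The M-CSF arrays differed from each other for Ccl7, at 6.45 and 7.54, while the FSL-1 arrays read 11.003 and 11.01, well apart from both. Cxcl2, a neutrophil attractant, and Ccl3 differed by 1.29 and 1.07. Ccl5 was the only chemokine called lower, with 6.88 and 6.83 in the M-CSF arrays and 6.23 and 6.32 in the FSL-1 arrays and a call that was lost on removal of any 1 compared array. Cxcl10, an interferon-induced chemokine, read 6.02 and 5.69 in the M-CSF arrays and 5.48 and 5.74 in the FSL-1 arrays, overlapping between groups, and was not called. The receptor Ccr2 was dim in every array, at 4.50 and 4.61 in the M-CSF arrays and 4.38 and 4.26 in the FSL-1 arrays.

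Among cytokines and growth factors 13 of 98 measured members were higher (13.3%) and 4 lower (4.08%) at a median log2 difference of 0.06, with 8, 11, 8 and 9 higher and 2, 4, 2 and 2 lower with 1 array left out. Il1rn, the IL-1 receptor antagonist, read 5.98 and 6.49 in the M-CSF arrays and 10.21 and 10.05 in the FSL-1 arrays, a difference of 3.90 ± 0.173 (limma adjusted p = 2.41e-05). Csf1, which encodes M-CSF itself, read 6.51 and 6.89 in the M-CSF arrays and 9.72 and 9.72 in the FSL-1 arrays, a difference of 3.02 ± 0.146 (limma adjusted p = 3.05e-05), or 8.1-fold. Tnf read 7.55 and 8.08 in the M-CSF arrays and 9.89 and 10.02 in the FSL-1 arrays, a difference of 2.14 ± 0.178 (limma adjusted p = 4.77e-04). The 3 genes were high in both FSL-1 arrays, and for Csf1 the arrays of that group were equal to 2 decimals. Il1f9 (IL-36 gamma), a ligand of Il1rl2, rose with its receptor, with 3.26 and 3.35 in the M-CSF arrays and 5.85 and 5.78 in the FSL-1 arrays. Tnfsf4 (OX40 ligand), Il1a, Inhba (activin A) and Osm (oncostatin M) differed by 2.12, 1.57, 1.19 and 0.89. Il18 and Kitl, the KIT ligand, fell by stable differences of -1.36 and -1.33. Il6 was dim in every array, with 2.83 and 2.77 in the M-CSF arrays and 3.10 and 3.05 in the FSL-1 arrays. Il10 was dim as well, with 5.34 and 5.06 in the M-CSF arrays and 5.16 and 5.43 in the FSL-1 arrays, and neither was called.

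Among acute phase and host defence proteins the largest increases were those of Saa3 and Cd55. In the list 19 of 80 measured members were higher (23.8%) and 3 lower (3.75%) at a median log2 difference of 0.10, with 10, 10, 11 and 10 higher and 1, 4, 0 and 1 lower with 1 array left out. Saa3, a serum amyloid A protein, read 5.87 and 5.51 in the M-CSF arrays and 11.27 and 10.998 in the FSL-1 arrays, a difference of 5.44 ± 0.192 (limma adjusted p = 7.35e-06), which is 43.5-fold. Cd55, a membrane inhibitor of complement activation, read 4.85 and 4.17 in the M-CSF arrays and 9.01 and 8.88 in the FSL-1 arrays, a difference of 4.44 ± 0.208 (limma adjusted p = 2.91e-05). Lcn2, which withholds iron from bacteria by binding their siderophores, read 5.95 and 5.73 in the M-CSF arrays and 8.69 and 8.53 in the FSL-1 arrays, a difference of 2.77 ± 0.197 (limma adjusted p = 2.02e-04). Each of these was near or below the median of all genes with M-CSF and above it with FSL-1. Procr, the protein C receptor, and F5, coagulation factor V, differed by 3.14 and 1.89, S100a8 by 2.40 and Slpi, an inhibitor of neutrophil elastase, by 1.99. S100a8 is also in the neutrophil marker list, whose mean levels are given above. Mfge8, a bridge to apoptotic cells, rose by 1.28. The bridging protein Gas6 and the apolipoprotein Apoe were lower by differences of -0.80 and -0.82. Those calls were lost without FSL-1 replicate 1, and for Apoe also without FSL-1 replicate 2 or M-CSF replicate 1. C1qa read 9.90 and 9.86 in the M-CSF arrays and 9.84 and 10.32 in the FSL-1 arrays, with overlapping groups.

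Of the secreted proteases and inhibitors outside the Mmp and Timp families, 10 of 78 measured members were higher (12.8%) and 3 lower (3.85%) at a median log2 difference of 0.05, with 6, 11, 6 and 5 higher and 0, 1, 0 and 0 lower with 1 array left out. Ctsk, the collagen-degrading cathepsin of osteoclasts, read 5.02 and 5.56 in the M-CSF arrays and 7.17 and 7.40 in the FSL-1 arrays, a difference of 1.99 ± 0.189 (limma adjusted p = 9.32e-04). Plaur, the urokinase receptor, differed by 1.45, Serpinb2, an inhibitor of urokinase, by 2.26 at a dim level of 5.32 and 5.46 in the FSL-1 arrays, and Cpd, a carboxypeptidase, by 0.997. Serpinb9b differed by 2.40, while its dimmer second probe set differed by 0.15. Urokinase itself, Plau, read 10.28 and 10.93 in the M-CSF arrays and 10.94 and 11.02 in the FSL-1 arrays and was called higher only without M-CSF replicate 2, and Ctsb, a lysosomal cathepsin, differed by 0.03 ± 0.11 (limma adjusted p = 0.935).

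In central carbon metabolism the gene with the largest increase was Acod1, which makes itaconate from the citrate cycle. It read 5.46 and 5.49 in the M-CSF arrays and 10.09 and 9.96 in the FSL-1 arrays, a difference of 4.55 ± 0.136 (limma adjusted p = 4.91e-06), or 23.5-fold. Pfkfb3, which drives glycolysis through fructose bisphosphate, read 6.29 and 6.20 in the M-CSF arrays and 7.51 and 7.63 in the FSL-1 arrays, a difference of 1.32 ± 0.17 (limma adjusted p = 0.00404). These were the only stable calls of the list, in which 17 of 97 measured members were higher (17.5%) and 2 lower (2.06%) at a median log2 difference of 0.08, with 4, 9, 3 and 3 higher and 0, 1, 0 and 0 lower with 1 array left out. The glucose transporter Slc2a1 read 8.53 and 8.66 in the M-CSF arrays and 10.09 and 10.11 in the FSL-1 arrays, a stable difference of 1.51 ± 0.116 (limma adjusted p = 3.24e-04). A second, dimmer probe set of Slc2a1 differed by 0.17. The lactate exporter Slc16a3 read 6.85 and 7.17 in the M-CSF arrays and 8.19 and 8.07 in the FSL-1 arrays, a stable difference of 1.13 ± 0.142 (limma adjusted p = 0.0037). Both carriers were high in the FSL-1 arrays, with no overlap. Hk2, a hexokinase, and Hif1a, the oxygen-sensing factor, differed by 0.63 ± 0.118 (limma adjusted p = 0.0194) and 0.47 ± 0.112 (limma adjusted p = 0.0459), and both calls were lost on removal of any 1 compared array. That of Hif1a was also lost with centred arrays, with the mean of its probe sets and with the compared groups alone. Srm (spermidine synthase), Odc1 (ornithine decarboxylase) and Aldh18a1 (proline synthesis) differed by 1.09, 0.81 and 1.20. The Odc1 call was lost on removal of any 1 compared array, that of Srm with either FSL-1 array left out, and that of Aldh18a1 without FSL-1 replicate 1. Arg1 and Nos2, the competing arginine enzymes of macrophages, were both dim. Arg1 read 4.81 and 4.87 in the M-CSF arrays and 5.22 and 4.92 in the FSL-1 arrays. Nos2 read 5.17 and 5.29 in the M-CSF arrays and 5.41 and 5.45 in the FSL-1 arrays, and neither gene was called.

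Slc7a11, Gclm, Nqo1 and Nox1, genes of cystine uptake, glutathione synthesis and redox reactions, were higher with FSL-1. In the amino acid, one-carbon, nucleotide and redox list 23 of 116 measured members were higher (19.8%) and 4 lower (3.45%) at a median log2 difference of 0.21, with 16 stable calls among the higher ones and 18, 23, 17 and 17 higher and 1, 4, 1 and 1 lower with 1 array left out. Over all genes 3.91% were higher, 2.95% lower and 1.15% higher with a stable call. Slc7a11, the transporter that imports cystine for glutathione synthesis, read 4.97 and 4.81 in the M-CSF arrays and 9.69 and 9.50 in the FSL-1 arrays, a difference of 4.70 ± 0.182 (limma adjusted p = 1.14e-05). A second probe set of Slc7a11, dimmer, differed by 1.32. Gclm, the modifier subunit of the enzyme that starts glutathione synthesis, read 9.997 and 9.91 in the M-CSF arrays and 11.37 and 11.37 in the FSL-1 arrays, a difference of 1.41 ± 0.113 (limma adjusted p = 3.92e-04). The glutathione transferases Gsta3 and Gstp1 differed by 2.71 and 1.41, though members of this family have near-identical copies. Enzymes that remove peroxides and superoxide, Srxn1, Gpx1, Txnrd1 and Sod2, were higher by 1.24, 1.21, 0.83 and 1.33. These 4, like Gclm, Gstp1 and Chac1, were named after their values were seen. Nqo1, a quinone reductase, read 6.21 and 5.84 in the M-CSF arrays and 7.88 and 7.84 in the FSL-1 arrays, a difference of 1.84 ± 0.179 (limma adjusted p = 0.00107). Chac1, which breaks glutathione down, was also higher, by 1.41. Production of superoxide was represented by Nox1, a catalytic NADPH oxidase, which read 4.85 and 4.37 in the M-CSF arrays and 7.71 and 7.54 in the FSL-1 arrays, a difference of 3.01 ± 0.281 (limma adjusted p = 8.44e-04). Hmox1, haem oxygenase, differed by 0.50 ± 0.111 (limma adjusted p = 0.037), a call that was lost on removal of any 1 compared array, with centred arrays and with the compared groups alone.

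Enzymes of nucleotide metabolism differed in both directions. Bst1, which hydrolyses NAD outside the cell, read 5.16 and 5.20 in the M-CSF arrays and 8.68 and 8.78 in the FSL-1 arrays, a difference of 3.55 ± 0.114 (limma adjusted p = 5.71e-06). Gda, the guanine deaminase, differed by 1.86. Entpd1 (CD39), which removes extracellular ATP, fell, with 10.03 and 9.99 in the M-CSF arrays and 8.80 and 9.02 in the FSL-1 arrays and a difference of -1.10 ± 0.123 (limma adjusted p = 0.00204). Mthfd2, of mitochondrial one-carbon metabolism, differed by 1.19, and its call was lost without M-CSF replicate 1 or either FSL-1 array. Phgdh, the first enzyme of serine synthesis, differed by 0.66 ± 0.246 (limma adjusted p = 0.168) and was not called.

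**Figure D4:**
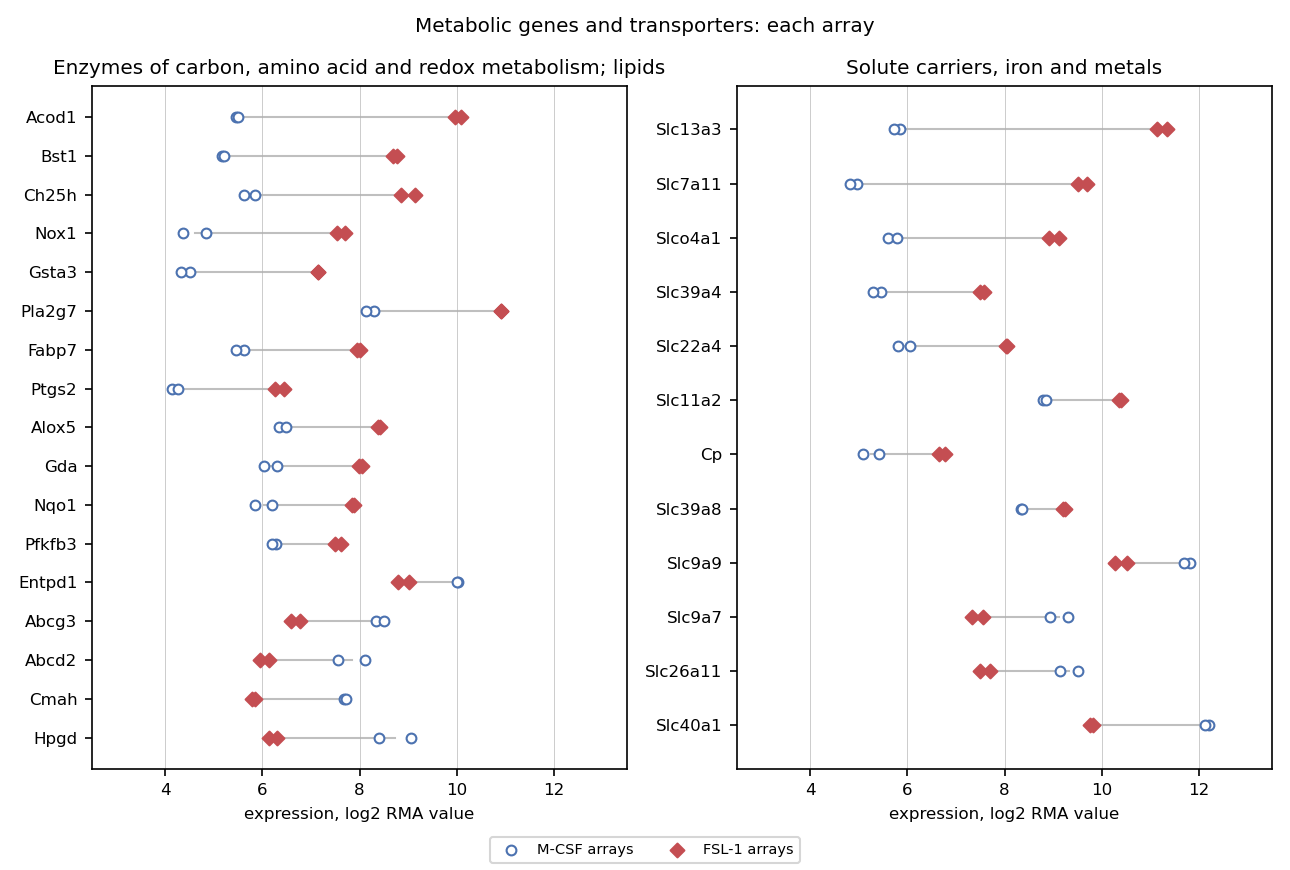
Log2 RMA values of the metabolic genes that the naming rule took from the lists: enzymes and lipid genes on the left, solute carriers with iron and metal genes on the right. Their calls are stable. Genes named after their values were seen are not shown. Open circles are M-CSF arrays, diamonds FSL-1 arrays and grey lines join group means. Slc7a11 moves from 4.97 and 4.81 to 9.69 and 9.50, and Slc40a1 from 12.21 and 12.12 to 9.76 and 9.82.

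In the prostaglandin E2 pathway, the synthetic genes Ptgs2 and Ptges were higher and the inactivating gene Hpgd was lower. Ptgs2 (COX-2), which makes the common precursor, read 4.14 and 4.26 in the M-CSF arrays and 6.26 and 6.46 in the FSL-1 arrays, a difference of 2.16 ± 0.181 (limma adjusted p = 4.94e-04). Ptges, the inducible prostaglandin E synthase, read 5.64 and 5.62 in the M-CSF arrays and 6.52 and 6.62 in the FSL-1 arrays, a difference of 0.94 ± 0.118 (limma adjusted p = 0.0037). Hpgd, which inactivates prostaglandin E2, read 9.06 and 8.41 in the M-CSF arrays and 6.14 and 6.31 in the FSL-1 arrays, a difference of -2.51 ± 0.215 (limma adjusted p = 5.34e-04), the largest decrease over all genes that met the naming conditions. Cbr2, a carbonyl reductase, differed by -1.52, with a stable call. Hpgds, the haematopoietic prostaglandin D synthase, differed by -0.57 ± 0.114 (limma adjusted p = 0.0249), and its call was lost on removal of any 1 compared array. The 3 prostanoid receptors described above rose in the same arrays. Tbxas1, the thromboxane synthase, differed by -0.42 ± 0.126 (limma adjusted p = 0.099) and was called lower only with trend and robust moderation and with the filter on dim genes.

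Leukotriene genes moved in opposite directions along the pathway. Alox5, the 5-lipoxygenase that begins leukotriene synthesis, read 6.34 and 6.50 in the M-CSF arrays and 8.38 and 8.41 in the FSL-1 arrays, a difference of 1.98 ± 0.12 (limma adjusted p = 1.03e-04), and its second probe set differed by 0.91. Ltc4s, which conjugates the leukotriene with glutathione, read 8.43 and 8.40 in the M-CSF arrays and 6.60 and 6.82 in the FSL-1 arrays, a difference of -1.70 ± 0.127 (limma adjusted p = 2.79e-04). Groups were apart for both, as naming required, high in FSL-1 for Alox5 and low for Ltc4s. Alox5ap, which presents the substrate to Alox5, and Lta4h, which makes leukotriene B4, differed by -0.08 ± 0.111 (limma adjusted p = 0.756) and -0.18 ± 0.117 (limma adjusted p = 0.469), and neither was called.

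Over the whole lipid list 18 of 144 measured members were higher (12.5%) and 18 lower (12.5%) at a median log2 difference of -0.04, with 11, 15, 13 and 11 higher and 10, 13, 7 and 10 lower with 1 array left out. Ch25h, which makes 25-hydroxycholesterol, read 5.62 and 5.85 in the M-CSF arrays and 9.15 and 8.85 in the FSL-1 arrays, a difference of 3.27 ± 0.146 (limma adjusted p = 2.41e-05), and its dimmer second probe set differed by 0.80. Pla2g7, which hydrolyses platelet-activating factor, read 8.30 and 8.12 in the M-CSF arrays and 10.90 and 10.90 in the FSL-1 arrays, a difference of 2.69 ± 0.126 (limma adjusted p = 2.91e-05). The fatty acid binding proteins Fabp7 and Fabp4 differed by 2.44 and 1.28, and the lipid phosphatases Plpp1 and Plpp3 by 1.4 and 1.32. Abcd2, which carries fatty acids into peroxisomes, fell by a stable difference of -1.79. The ABC transporters Abcg3 and Abca9 also fell, by -1.74 and -1.60. Cmah, which modifies sialic acids, read 7.69 and 7.73 in the M-CSF arrays and 5.78 and 5.86 in the FSL-1 arrays, a difference of -1.89 ± 0.121 (limma adjusted p = 1.29e-04). Cyp27a1, a sterol hydroxylase, and Abcg1, a cholesterol exporter, differed by -1.23 and -0.96. Those calls were lost without FSL-1 replicate 1, the Cyp27a1 call also without FSL-1 replicate 2 and the Abcg1 call also without M-CSF replicate 1. The cholesterol exporter Abca1 read 10.62 and 9.89 in the M-CSF arrays and 9.44 and 9.68 in the FSL-1 arrays and was not called.

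Among iron genes, the exporter was lower and an importer higher with FSL-1. Slc40a1 (ferroportin), the only known exporter of iron from cells, read 12.21 and 12.12 in the M-CSF arrays and 9.76 and 9.82 in the FSL-1 arrays, a difference of -2.37 ± 0.111 (limma adjusted p = 2.91e-05), which is 5.18-fold lower. Slc11a2 (DMT1), which imports ferrous iron, read 8.79 and 8.85 in the M-CSF arrays and 10.40 and 10.36 in the FSL-1 arrays, a difference of 1.56 ± 0.125 (limma adjusted p = 3.92e-04). Cp (ceruloplasmin), which oxidises iron, differed by 1.45, and the zinc importers Slc39a4 and Slc39a8 by 2.16 and 0.88. The importers rose and the exporter fell in both FSL-1 arrays. The transferrin receptor Tfrc differed by 0.79 ± 0.138 (limma adjusted p = 0.015) and Ncoa4, which carries ferritin to lysosomes, by -0.67 ± 0.109 (limma adjusted p = 0.0114). Tfrc lost its call on removal of any 1 compared array, and Ncoa4 without M-CSF replicate 1 or either FSL-1 array. Fth1, the ferritin heavy chain, read 13.27 and 13.31 in the M-CSF arrays and 13.32 and 13.33 in the FSL-1 arrays and was not called. In the list 8 of 50 measured members were higher (16%) and 2 lower (4%) at a median log2 difference of 0.04, with 5, 6, 5 and 4 higher and 1, 2, 1 and 1 lower with 1 array left out.

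In the solute carrier family 35 of 376 measured members were higher (9.31%) and 17 lower (4.52%) at a median log2 difference of 0.04, with 21, 27, 18 and 18 higher and 7, 12, 7 and 7 lower with 1 array left out. The largest increase of any gene in the comparison that met the naming conditions was that of Slc13a3, a carrier of dicarboxylates such as succinate. It read 5.84 and 5.73 in the M-CSF arrays and 11.34 and 11.14 in the FSL-1 arrays, a difference of 5.45 ± 0.138 (limma adjusted p = 3.76e-06), or 43.9-fold. Slco4a1, an organic anion carrier, and Slc22a4, which takes up ergothioneine, differed by 3.32 and 2.11. Slc31a2, a copper carrier, differed by 1.08. Decreases were seen in the sodium-proton exchangers Slc9a7 and Slc9a9, by differences of -1.67 and -1.35, in Slc26a11, an anion exchanger, by -1.72, and in the lysosomal carrier Slc46a3 by -1.32. Slc9b2, a further sodium-proton exchanger of the list, was higher with a stable call, at rank 71 of the increases over all genes. The M-CSF arrays of Slc26a11 read 9.51 and 9.13 and the FSL-1 arrays 7.49 and 7.70.

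Among the 15 largest changes in each direction over all genes were genes outside every list. Lox, which crosslinks collagen, and Mmp14, a membrane-bound collagenase, differed by 5.14 and 4.89. Akr1c18, a steroid and prostaglandin reductase, read 4.81 and 4.08 in the M-CSF arrays and 8.59 and 8.21 in the FSL-1 arrays, a difference of 3.96 ± 0.238 (limma adjusted p = 9.89e-05). Klra2, a lectin-like receptor of the Ly49 family, whose members have near-identical copies, differed by 3.93. Lancl3 differed by 4.33, but its very dim second probe set by 0.04. On the lower side were Lama3, a laminin chain, with 8.17 and 7.52 in the M-CSF arrays and 5.45 and 5.48 in the FSL-1 arrays and a difference of -2.38 ± 0.203 (limma adjusted p = 5.10e-04), and Arrdc3, an arrestin-related protein, with 10.09 and 9.58 in the M-CSF arrays and 7.53 and 8.09 in the FSL-1 arrays and a difference of -2.02 ± 0.224 (limma adjusted p = 0.00196). Plxdc2, Gbp9 (an interferon-induced GTPase), Rnf144b (a ubiquitin ligase) and H2-Aa (an MHC class II chain) differed by -1.96, -1.70, -1.69 and -1.69. Macrophage surface genes that were not called included Sirpa, with a difference of -0.02 ± 0.111 (limma adjusted p = 0.953), Itgax, with 0.11 ± 0.142 (limma adjusted p = 0.76), and Cx3cr1, with 0.10 ± 0.141 (limma adjusted p = 0.777).

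The arrays with FSL-1 and nutlin-3a give a second reading of several of these genes, although both differences share the M-CSF arrays and no test between them is given here. Csf1 read 6.25 and 6.22 with nutlin-3a, below the M-CSF arrays. Ptgir read 6.68 and 6.68, near its M-CSF values, and Ccl12 read 5.57 and 5.90, between the groups. Slc40a1 read 11.31 and 11.31, also between. By contrast Marco read 12.07 and 12.06, Slc7a11 10.50 and 9.97 and Gclm 11.43 and 11.52, all above both FSL-1 arrays. Pilra read 9.55 and 9.96, against 9.54 and 9.59 with FSL-1 alone. Il6ra read 9.004 and 8.84 and Pparg 6.96 and 7.21, below the M-CSF arrays as with FSL-1 alone.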

How the data were processed

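RNA of 6 samples was measured on Affymetrix arrays. The authors deposited log2 values made by RMA, and the submitters' processing notes name Affymetrix Expression Console 1.4. The values were not changed. Of 34390 probe sets, the platform annotation gave exactly 1 gene for 23521, several for 1814 and none for 9055. The brightest probe set by mean over the 6 arrays stood for each of 22180 genes, 1082 of which had several. The number of arrays limits the precision, and RMA's quantile step assumes like distributions on all arrays.

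With limma 3.58.1 (R 4.3.3), lmFit and eBayes were fitted to all 6 arrays (3 residual degrees of freedom) and FSL-1 was compared with M-CSF, with Benjamini-Hochberg adjustment over all genes. The fit was tested on simulated data. The list members, the gene lists and the comparison were chosen with earlier results of these data known. Named were the up to 5 largest increases and 4 largest decreases per list and the 15 largest of each direction over all genes, among those called with each of the 4 compared arrays left out, with groups not overlapping and the brighter group above the median, and 44 genes whatever their values. Of the 44, 42 were measured, and Zeb2 and C3 were not. Predicted genes were passed over. Further members were named after their values were seen, to complete a pathway or a count: among them Ptges, Ptger4, Cbr2, Hpgds, Pilrb1, Gclm, Slc2a1, the marker genes and most genes described as called but not stable. Srxn1, Gpx1, Txnrd1, Sod2, Gstp1, Chac1 and Slc16a3, with stable calls, were named in the same way. Of the members of the 19 lists, 116 were not measured. The alternatives were the moderation of variances, centring, the mean of probe sets, a filter on dim genes, the 4 compared arrays alone, replicate number as a block, and each array left out. RefSeq promoters (GRCm38.p6) were matched by symbol.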

Additional observations from a re-analysis of the deposited data

How the results depend on the processing

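The naming rule admitted only genes called with each of the 4 compared arrays left out and with groups that did not overlap. Those fits and the gap between groups therefore say nothing more about them. In the other 8 alternatives the 106 genes named by the rule, the fixed genes aside, kept their direction and their call. These 8 are not separate checks. Leaving out either nutlin-3a array repeats the fit of the compared groups alone, since a lone array adds nothing to the spread. Only centring and the mean of probe sets could change a log2 difference, and so its direction. The filter on dim genes could remove none of the genes named by the rule, which required the brighter group above the median. No call of a named gene turned to the other direction in any fit. The numbers of genes called depended on the settings. With a mean-variance trend and robust moderation 1476 genes were called higher and 1268 lower, and with only genes above the median 1466 and 1307, in place of 867 and 654. Fits that left out 1 of the 6 arrays gave 294 to 755 higher and 116 to 544 lower. Centred arrays gave 760 and 673, the mean of probe sets 843 and 639, and the compared groups alone 755 and 544. The cause of these changes was not tested. Replicate numbers did not pair the samples: deviations of same-numbered M-CSF and FSL-1 arrays correlated at -0.1878, and those of the nutlin-3a arrays at 0.0175 and -0.0248 with M-CSF and FSL-1. The replicate block gave 692 higher and 475 lower, and a crossed pairing, chosen after seeing the data, 744 and 534. With the replicate block the calls of Hif1a, Hmox1, Hpgds, Acta2, Cxcr2, Cd79b and Itgb3 were lost, and no other call of a named gene changed. Stat4, Dach1, Myc and Slc9b2, given by rank without values, are not counted among the named genes here.

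Counts of list members moved by more than 1.5 times under some settings, each from the count in the report to that setting's. With trend and robust moderation these were ETS and related factors lower 2 to 5, nuclear receptors lower 2 to 4, zinc finger and related factors lower 4 to 8, scavenger and Fc receptors lower 5 to 11, Ig-like family lower 2 to 4, cytokine receptors lower 9 to 15, acute phase proteins lower 3 to 7, secreted proteases lower 3 to 6, central carbon enzymes higher 17 to 29, central carbon enzymes lower 2 to 6, amino acid and redox enzymes lower 4 to 8 and lipid genes lower 18 to 29. With the filter on dim genes they were bZIP factors lower 2 to 4, ETS and related factors lower 2 to 6, nuclear receptors lower 2 to 4, bHLH and PAS factors lower 5 to 10, zinc finger and related factors lower 4 to 8, scavenger and Fc receptors lower 5 to 10, cytokine receptors lower 9 to 14, chemokines lower 1 to 2, acute phase proteins lower 3 to 5, secreted proteases lower 3 to 6, central carbon enzymes lower 2 to 6, amino acid and redox enzymes higher 23 to 35, amino acid and redox enzymes lower 4 to 9 and lipid genes lower 18 to 28. With the compared groups alone they were ETS and related factors lower 2 to 1, nuclear receptors lower 2 to 1, bHLH and PAS factors higher 5 to 3, zinc finger and related factors lower 4 to 2, secreted proteases lower 3 to 1, central carbon enzymes higher 17 to 10, central carbon enzymes lower 2 to 1 and amino acid and redox enzymes lower 4 to 2, with the replicate block ETS and related factors lower 2 to 1, nuclear receptors lower 2 to 1, zinc finger and related factors lower 4 to 2, scavenger and Fc receptors higher 6 to 3, secreted proteases lower 3 to 1, central carbon enzymes higher 17 to 10, central carbon enzymes lower 2 to 1 and amino acid and redox enzymes lower 4 to 2, and with centred arrays central carbon enzymes lower 2 to 1.

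Signal over background limits the dim genes: Il6, Il10, Arg1, Nos2 and Ccr2 lay below the median of all genes in every array, so that their differences carry little information. Each group had 2 arrays, probes can cross-hybridise between near-identical copies, and the sort that preceded RNA extraction is not described in the sources used here.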
